A study of Torulaspora delbrueckii with 17 samples.

Results

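Kos3 and Orc1 were compared in wild-type Torulaspora delbrueckii, a budding yeast, by the positions, widths, summits and extent of their ChIP-seq peaks. All deposited peak lists from wild-type immunoprecipitates were taken, which are 2 lists for Kos3 and 2 for Orc1, or 4 of the 17 samples of the series. They held 832 of the 5717 peaks in the 15 deposited lists, 224 of them for Kos3 and 608 for Orc1. Both Kos3 libraries were precipitated through a V5 tag from strain LRY3211, in which Orc1 also carried a MYC tag. One Orc1 library was precipitated through that MYC tag from the same strain, LRY3211. The other came from strain LRY3204, for which the labels name the MYC tag on Orc1 and no V5 tag on Kos3. Every culture was grown in YPD medium, cross-linked with formaldehyde, lysed and sonicated, and precipitated with an antibody against the tag. The design text calls the paired libraries technical replicates, although the 2 Orc1 libraries come from different strains. The p-values here measure the spread between libraries and not between replicate cultures of the same strain. For Orc1 that spread also takes in strain and tag, and possibly input. Per the file names, the LRY3204 list was called against one input library and the other 3 lists against another, so strain, tag, input and replicate number cannot be told apart between the Orc1 lists. Peak names in those 3 lists carry another input number than the file names, the same in all 3, so which input served them is uncertain.

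Orc1 is the largest subunit of the origin recognition complex, which marks the places where DNA replication can start. In Saccharomyces cerevisiae the same complex also sits at the silencers of the mating-type loci, where the BAH domain of Orc1 binds Sir1 and so brings in the other Sir proteins. Kos3 belongs to the family of proteins related to Sir1. In that species Sir3, a silencing protein that spreads along chromatin at silent loci and telomeres, arose from a duplicate of Orc1. Torulaspora branched off before that duplication, and the comparison asks where Kos3 and the single Orc1 lie together and where Orc1 lies alone.

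Kos3 lists were shorter and their peaks narrower. Kos3 replicate 1 held 105 peaks and replicate 2 held 119, whereas Orc1 had 300 in LRY3204 and 308 in LRY3211. Means were 112 ± 9.90 and 304 ± 5.66 (SD, n = 2 libraries each), and the exact two-sided permutation test over libraries gave p = 0.333. This is the smallest p that 2 libraries against 2 allow, so no difference between the proteins could pass a threshold of 0.05 here. The median peak width was 306 and 375 bp for Kos3 and 849.5 and 844.5 bp for Orc1, again without overlap between the proteins. The narrowest peak was 200 bp in every list, and the widest spanned 6473 and 6528 bp for Kos3, 7090 bp for Orc1 in LRY3204 and 31273 bp for Orc1 in LRY3211. Peaks over 2 kb were nevertheless a larger share of the Kos3 lists, with 10 and 13 peaks (9.52% and 10.9%) against 13 and 21 Orc1 peaks (4.33% and 6.82%). Among peaks with a −log10 q of at least 10 the width difference of −506.5 bp shrank to −73.75 bp. Peaks together covered 78.8 and 98.2 kb for Kos3, which is 0.855% and 1.07% of all bases. For Orc1 they covered 289.9 and 391.2 kb, which is 3.15% and 4.24%.

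Most Kos3 sequence lay near chromosome ends, and most Orc1 sequence did not. Within 20 kb of an end, which is 3.47% of all bases, lay 59 of 105 and 73 of 119 Kos3 peaks (56.2% and 61.3%) but 51 of 300 and 77 of 308 Orc1 peaks (17.0% and 25%). By length, 63.6% and 64.9% of Kos3 coverage lay there, against 21.3% of Orc1 coverage in LRY3204 and 36.9% in LRY3211. The difference of the means, 64.3% ± 0.877 against 29.1% ± 11.1 (SD, n = 2 libraries each), was 35.2 percentage points (exact two-sided permutation test, p = 0.333, the smallest possible). In absolute length the ends look different. Kos3 covered 50.2 and 63.7 kb near ends, Orc1 in LRY3204 covered 61.65 kb, between them, and Orc1 in LRY3211 covered 144.5 kb. The lower Orc1 share came from the interior, where its peaks summed to 228.3 and 246.7 kb while those of Kos3 summed to 28.7 and 34.5 kb.

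Coverage of both proteins fell off inward over the outermost 20 kb. From there to 80 kb it fell from bin to bin only in Kos3 replicate 2 (3.53%, 2.86% and 2.64%). In the outermost 5 kb, Kos3 peaks covered 43.2% and 50.6% of the bases and Orc1 peaks 47.1% in LRY3204 and 79.8% in LRY3211. From 5 to 10 kb the shares were 10.4% and 14.8% for Kos3, 15.3% for Orc1 in LRY3204 and 47.5% in LRY3211. The Kos3 lists and the LRY3204 Orc1 list were thus close to each other in the outer bins, and the LRY3211 Orc1 list stood above all 3. In the bins from 20 to 80 kb the Kos3 shares ran from 2.37% to 2.71% and from 2.64% to 3.53%. Orc1 shares there ran from 4.35% to 6.75% in LRY3204 and from 7.82% to 8.58% in LRY3211. A long stretch of chromosome 5 with peaks of both proteins, at 48121-79495, falls in these bins. From 80 to 100 kb Kos3 was down to 0.0713% and 0.0241%, while Orc1 still covered 1.57% and 1.66%. More than 100 kb from any end, Kos3 peaks summed to 4.07 and 5.50 kb and Orc1 peaks to 170.4 and 163.5 kb.

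**Figure D1:**
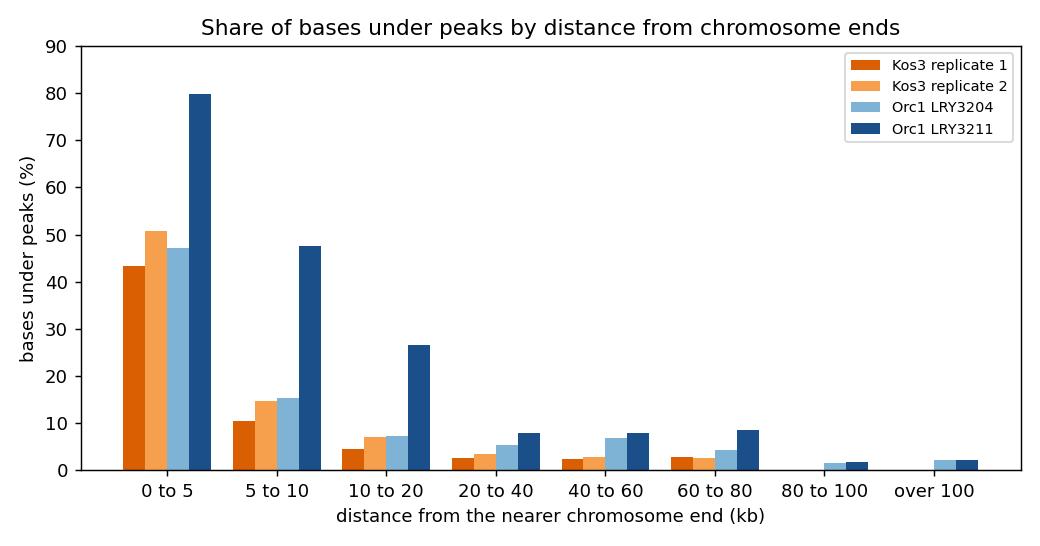
Share of bases under peaks (%, vertical axis) in bins of distance from the nearer chromosome end (kb, horizontal axis); each bar is 1 peak list, with no error bar because each library gives 1 value. In the outermost bin the bars are 43.2%, 50.6%, 47.1% and 79.8%, and beyond 80 kb Kos3 bars are too low to see while Orc1 bars remain.

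All 4 lists had peaks within 20 kb at 14 of the 16 chromosome ends. The exceptions were the left end of chromosome 3, where Kos3 covered 0 and 0.2 kb and Orc1 1.35 and 2.67 kb, and the right end of chromosome 7, where Kos3 had no peak and Orc1 covered 0.508 and 0.472 kb. Orc1 in LRY3211 covered more than either Kos3 list at 16 of 16 ends. Orc1 in LRY3204 covered more than either Kos3 list at 9 ends and less than either at 3. At the left end of chromosome 2, for example, Kos3 covered 7.17 and 10.2 kb and Orc1 9.01 and 18.8 kb. At the left end of chromosome 6 the 4 values were 0.492, 2.00, 1.65 and 10.9 kb.

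By any overlap, most Kos3 peaks fell on Orc1 peaks, and few Orc1 peaks fell on Kos3 peaks. Of the Kos3 peaks, 92 of 105 and 109 of 119 overlapped an LRY3211 Orc1 peak by at least 1 bp, which is 87.6% (Wilson 95% interval 79.96% to 92.6%) and 91.6% (85.2% to 95.4%). Against the LRY3204 Orc1 list the shares were lower, at 65 of 105, or 61.9% (52.4% to 70.6%), and 64 of 119, or 53.8% (44.9% to 62.5%). These shares can be read against the 4.24% and 3.15% of bases that the Orc1 lists covered, although both proteins crowd at the ends. In the other direction, 48 and 58 of 300 LRY3204 Orc1 peaks (16.0% and 19.3%) and 38 and 44 of 308 LRY3211 Orc1 peaks (12.3% and 14.3%) overlapped Kos3 replicates 1 and 2. The mean share was 73.7% ± 1.47 for Kos3 and 15.5% ± 3.08 for Orc1 (SD, n = 2 libraries each), a difference of 58.2 percentage points (exact two-sided permutation test, p = 0.333, the smallest possible). The Kos3 share fell below 50% under stricter settings, to 40.95% (Orc1 16.2%) with the same number of peaks from each list and to 29.8% (Orc1 11.04%) with summits within 200 bp. Lists of 1 protein overlapped as follows. The Kos3 lists matched at 79 of 105 (75.2%) and 66 of 119 peaks (55.5%), and the Orc1 lists at 272 of 300 (90.7%) and 243 of 308 (78.9%). By 1 bp of overlap, a Kos3 peak was therefore found more often in the LRY3211 Orc1 list than in the other Kos3 list. That Orc1 list covered 4.24% of bases, and the Kos3 lists 0.855% and 1.07%. In the LRY3204 Orc1 list it was found less often than in the other Kos3 list. By summits of overlapping peaks within 200 bp, 26 and 32 Kos3 peaks matched LRY3211 Orc1, whereas 52 of each Kos3 list matched the other.

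Most Kos3 peaks lay inside Orc1 peaks of LRY3211, but fewer than 50% lay inside those of LRY3204. In LRY3211, 86 Kos3 peaks of replicate 1 (81.9%) and 101 of replicate 2 (84.9%) were contained whole in an Orc1 peak, and 95.2% and 96.3% of Kos3 bases were Orc1 bases. Against LRY3204, 43 (41.0%) and 27 (22.7%) were contained whole, and 80.2% and 73.0% of Kos3 bases were shared. From the Orc1 side, 21.8% and 24.7% of bases in LRY3204 and 19.2% and 24.2% in LRY3211 were Kos3 bases. A single LRY3211 Orc1 peak held up to 15 peaks of Kos3 replicate 1 and up to 16 of replicate 2.

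The overlap differed between ends and interior. Near ends, 57 of 59 and 72 of 73 Kos3 peaks overlapped an LRY3211 Orc1 peak, but only 40 of 59 and 40 of 73 overlapped one of LRY3204. In the interior the counts were 35 of 46 (76.1%) and 37 of 46 (80.4%) against LRY3211, and 25 and 24 of 46 against LRY3204. Interior Orc1 peaks with Kos3 were few. They numbered 21 and 22 of 249 in LRY3204 (8.43% and 8.84%) and 13 and 15 of 231 in LRY3211 (5.63% and 6.49%).

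Orc1 peaks with Kos3 had lower median folds than those without, while the difference in median width changed direction between the Orc1 lists. The fold enrichments are the authors' values and are set only against other peaks of their own list. The 10 strongest Kos3 peaks of each list were all overlapped in both Orc1 lists, and of the 25 strongest, 22 and 21 were overlapped in LRY3204 and 24 of each list in LRY3211. Among the 10 strongest Orc1 peaks, 5 in LRY3204 overlapped each Kos3 list, and 3 and 2 in LRY3211 did. In LRY3204, Orc1 peaks overlapped by Kos3 replicate 1 had a median fold of 3.22 and the others 6.68, and in LRY3211 the medians were 5.83 and 7.09. Of Orc1 peaks over 2 kb, 12 of 13 in LRY3204 overlapped each Kos3 list, and 18 and 19 of 21 in LRY3211 did. Of Orc1 peaks up to 2 kb, 36 and 46 of 287 did in LRY3204 (12.5% and 16.0%) and 20 and 25 of 287 in LRY3211 (6.97% and 8.71%). Orc1 peaks over 2 kb were thus nearly always overlapped by Kos3, and those up to 2 kb seldom were. A wide peak meets 1 bp of overlap more easily, which was not adjusted for. By median width, LRY3204 Orc1 peaks with Kos3 were narrower than those without, at 815 against 852 bp for replicate 1 and 628 against 875.5 bp for replicate 2. In LRY3211 they were wider, at 1804 and 1636 bp against 799 bp.

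To compare the proteins locus by locus, peaks of the 4 lists were linked into places wherever they overlapped by at least 1 bp. This gave 348 places, of which 77 had their midpoint within 20 kb of an end. A wide peak joins all peaks under it into 1 place, and a peak past the edge of a place counts in another. All 4 lists had peaks at 28 places, 19 of them near ends and 9 in the interior, and these are called shared. Another 198 places had both Orc1 lists and neither Kos3 list, and 193 of those were interior. Both Kos3 lists met at 33 places, 31 of which also held Orc1. Both Orc1 lists met at 235 places, and any Kos3 peak was present at 21 of the 26 near ends and at 16 of the 209 in the interior. Kos3 was found with the LRY3211 Orc1 list alone at 12 places, 10 of them near ends, and with the LRY3204 Orc1 list alone at 0 places. At those 12 places Orc1 covered 238 to 3301 bp, with a median of 766.5 bp and folds from 1.71 to 3.85. Orc1 of LRY3211 alone made 52 places, 38 near ends, and Orc1 of LRY3204 alone made 28, of which 0 were near ends.

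Of the 70 places with a Kos3 peak, 21 (30%) held no Orc1 peak, 3 of 34 near ends and 18 of 36 in the interior (50%). Most of them were in 1 Kos3 list, and 2 places held both Kos3 lists and neither Orc1 list. One, on chromosome 4 at 832971-833327 beside MAM3, whose product in S. cerevisiae is needed for normal mitochondrial morphology, had folds of 3.67 and 4.71. The other, on chromosome 6 at 369701-369995 between TDEL0F02020 and TDEL0F02030, had folds of 2.34 and 2.88. The others were 11 places found in Kos3 replicate 1 alone and 8 found in replicate 2 alone, each 200 to 393 bp long with folds from 1.81 to 2.68.

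At the 28 shared places, Orc1 of LRY3211 covered more sequence than Kos3, while Orc1 of LRY3204 covered about as much. Summed over these places, Kos3 covered 72.5 and 88.3 kb, Orc1 84.3 kb in LRY3204 and 159.8 kb in LRY3211. The mean per place was 2588 and 3155 bp for Kos3, 3011 bp for Orc1 in LRY3204 and 5708 bp in LRY3211. Group means of 2872 ± 401 and 4360 ± 1907 bp (SD, n = 2 libraries each) differed by −1488 bp, Kos3 minus Orc1 (exact two-sided permutation test, p = 0.667), because the LRY3204 value lay between the Kos3 values. At the same 28 places the Kos3 mean differed by −2837 bp from Orc1 of LRY3211 and by −139.8 bp from Orc1 of LRY3204. With the places redefined after leaving out one Orc1 library, the differences were −2617 bp without LRY3204 (31 places) and −178 bp without LRY3211 (41 places). Place by place, LRY3211 Orc1 exceeded both Kos3 lists at 27 of 28 places, LRY3204 Orc1 exceeded both at 15 and lay between them at 9, and both Orc1 lists lay below both Kos3 lists at 0. The bounds of places often followed the wide LRY3211 Orc1 peaks, so these counts partly follow from how places were linked. The median ratio of Orc1 to Kos3 length was 2.26 and 1.82 for LRY3211 and 1.23 and 1.02 for LRY3204, beside 1.27 between the Kos3 lists.

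Among places with both Orc1 lists, the covered lengths of the 2 lists differed most at shared places near ends. At the 19 shared places near ends the LRY3211 list covered more than the LRY3204 list at 18, with a median ratio of 1.83. At the 9 interior shared places it covered more at 5, with a median ratio of 1.03. At the 198 Orc1 places without Kos3 it covered more at 100, with a median ratio of 1.00 (quartiles 0.865 and 1.12) and median lengths of 967 bp in LRY3204 and 941 bp in LRY3211. None of these 198 places covered more than 2018 bp in LRY3204 or 2359 bp in LRY3211, whereas shared places reached 12626 and 31273 bp. Only 5 of the 198 lay near ends, so places with both Orc1 lists and no Kos3 give little information on the ends. Outside these, Orc1 of LRY3211 alone made 38 places near ends without Kos3, and Orc1 of LRY3204 alone made 0. The excess of the LRY3211 list near ends was thus not limited to shared places. Whether the presence of Kos3, the position or the input library goes with the ratio was not tested.

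**Figure D2:**
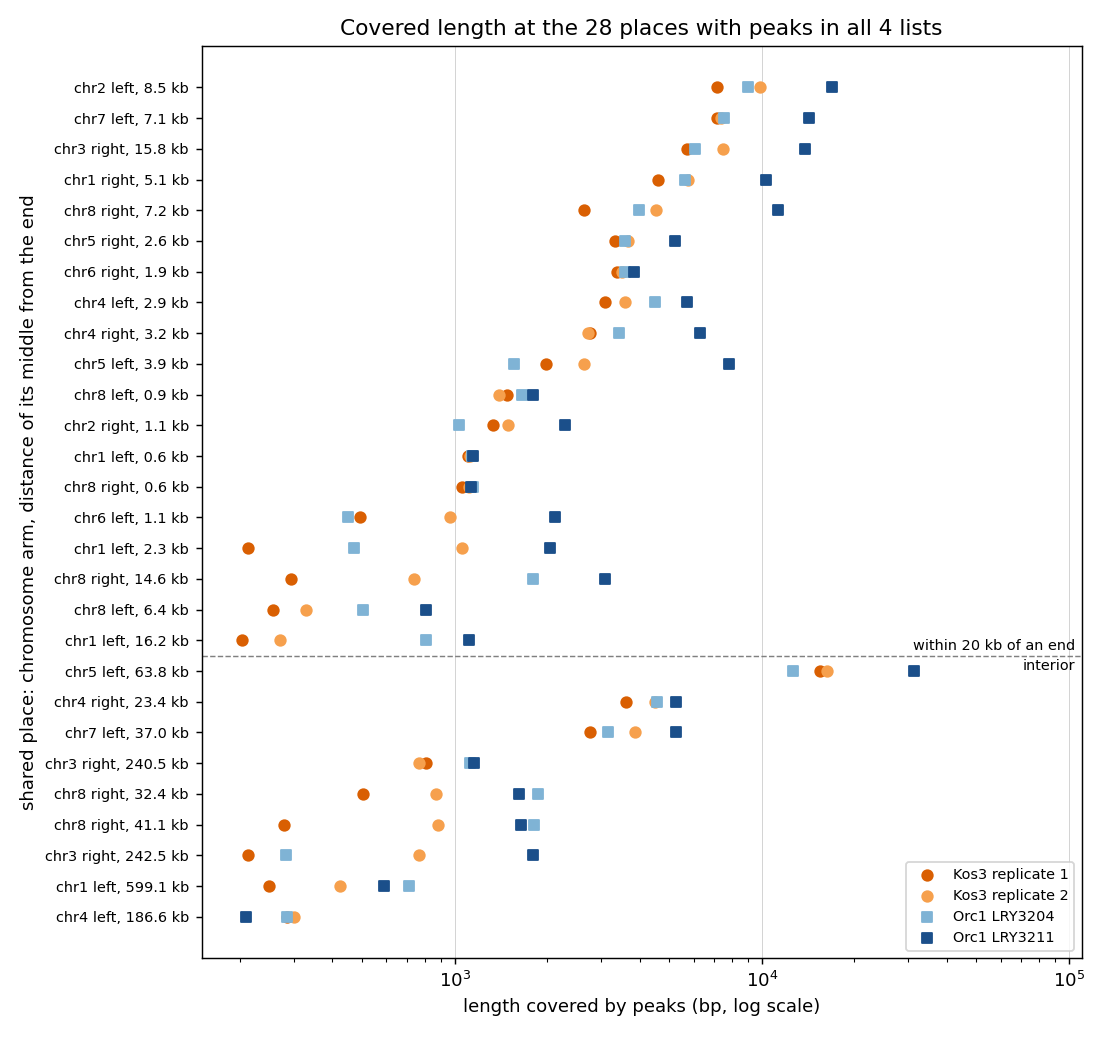
Length covered by peaks (bp, horizontal log axis) at each of the 28 shared places (vertical axis, named by chromosome arm and distance of the midpoint from the end), with 1 point per list; places are sorted by mean Kos3 length within each region. The dark squares of Orc1 in LRY3211 lie right of both Kos3 circles in 27 of 28 rows, and the light squares of Orc1 in LRY3204 lie right of both in 15.

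Long places were long for both proteins. Across the 28 shared places the mean Kos3 and mean Orc1 lengths had a Pearson correlation of 0.938 on the log10 scale and a Spearman correlation of 0.918, as a description only, since the places were chosen for having both proteins. A wide Orc1 peak also joins the Kos3 peaks under it into 1 place, which by itself links the lengths of the proteins. The fold ranks of the strongest Kos3 and the strongest Orc1 peak had a Spearman correlation of 0.765, against 0.931 between the Kos3 lists and 0.790 between the Orc1 lists. The rank of Orc1 within its own list differed with position. The median fold rank of the strongest Orc1 peak was 118 in LRY3204 and 106.5 in LRY3211 at shared places, and 117.5 and 116 at places without Kos3. Near ends it was 106 and 87 at the 19 shared places and 174 and 176 at the 5 without Kos3. In the interior it was 212 and 186 at the 9 shared places and 117 and 115 at the 193 without Kos3, so interior Orc1 peaks shared with Kos3 ranked lower in their lists.

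Where it was long, Kos3 was called as more peaks than Orc1, with a lower median covered share. At shared places Kos3 was called as 83 and 89 peaks, Orc1 as 64 in LRY3204 and as 32 in LRY3211, and 15, 11, 13 and 24 of the 28 places were 1 single peak. Over all 28 places the median covered share between a list's first and last peak edge was 100% and 81.5% for Kos3, 91.5% for Orc1 in LRY3204 and 100% in LRY3211. At the 12 places where Kos3 covered at least 2 kb in both lists, the 4 lists had 58, 60, 41 and 14 peaks. There, a median of 63.6% and 66.0% was covered by Kos3, 74.6% by Orc1 in LRY3204 and 100% by Orc1 in LRY3211. Wide LRY3211 Orc1 peaks join the Kos3 peaks under them, so the contrast with that list partly follows from how places were linked. At the longest place LRY3204 Orc1 had the larger gaps, with a mean of 2917 bp against 1004 and 938 bp for Kos3.

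Extension was measured from the strongest Kos3 summit of each shared place, outward to the chromosome end and inward. At the 19 places near ends the outermost edges of the place's peaks reached inward by a median of 2200 and 2140 bp for Kos3, 2852 bp for Orc1 in LRY3204 and 3543 bp in LRY3211. Orc1 of LRY3211 reached further inward than both Kos3 lists at 19 of 19 places, with a median excess of 373 bp over the further one. Orc1 of LRY3204 did so at 9 of 19, and its median difference from the further Kos3 list was −75 bp. Kos3 peaks past the edge of a place were not counted, so these counts partly follow from how places were linked. At the left end of chromosome 7, for example, the place ended at 14264 and a Kos3 replicate 1 peak lay at 14467-14690. Outward, where sequence is short, the medians were 318 and 556 bp for Kos3 and 574 and 652 bp for Orc1, and LRY3211 Orc1 reached beyond both Kos3 lists at 12 places. In the 9 interior places LRY3211 Orc1 reached beyond both at 6 inward and 8 outward. Averaged from 4 to 6 kb inward of the Kos3 summit near ends, 11.8% and 19.3% of places were under a Kos3 peak, 15.0% under an LRY3204 Orc1 peak and 62.7% under an LRY3211 Orc1 peak. From 1 to 3 kb the shares were 39.6% and 49.4% for Kos3, 48.4% and 87.2% for Orc1. LRY3204 Orc1 thus lay between the Kos3 lists in both stretches.

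**Figure D3:**
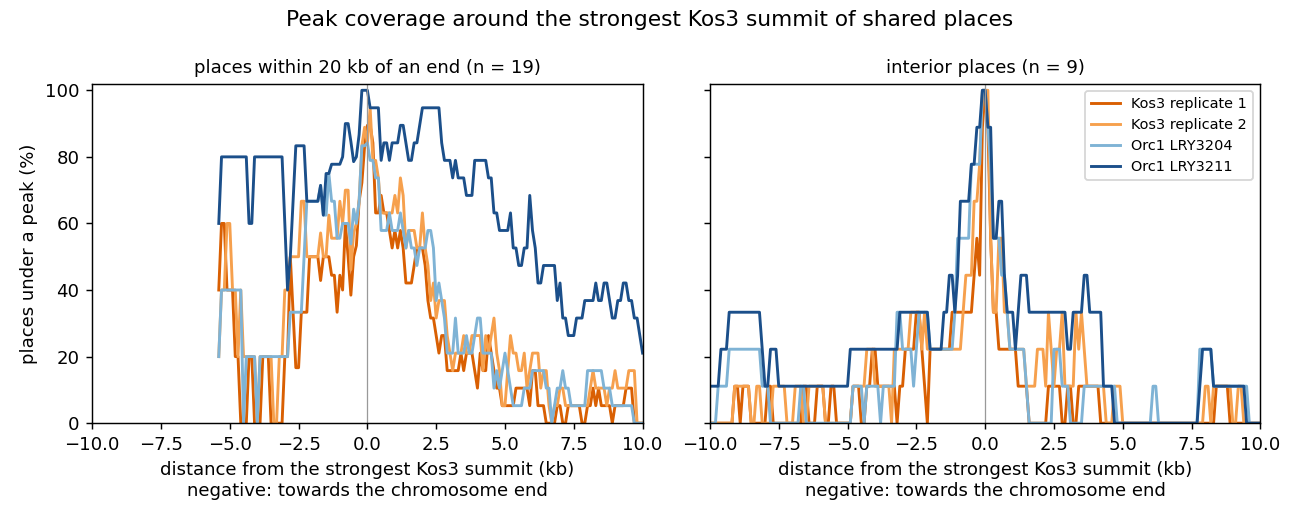
Share of shared places under any peak of a list (%, vertical axis) by distance from the strongest Kos3 summit (kb, horizontal axis, negative towards the chromosome end), left for 19 places near ends and right for 9 interior places; towards the end only places with sequence left at that distance count. On the left, the LRY3211 Orc1 line averages 62.7% from 4 to 6 kb inward, where the other 3 lines average 11.8% to 19.3%. On the right, the 4 lines are at 22.2% to 33.3% at 1 kb inward. At 1 kb towards the end, Kos3 is at 33.3% and 22.2% and Orc1 at 55.6% in LRY3204 and 44.4% in LRY3211.

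Most summits of Orc1 peaks overlapped by Kos3 lay close to a Kos3 summit, whereas from Kos3 the share depended on the Orc1 list. From an Orc1 summit to the nearest summit of an overlapping Kos3 peak, the median distance was 77 and 123.5 bp for LRY3204 and 77 and 85.5 bp for LRY3211, and 68.4% to 74.1% of summits were within 200 bp. Between the Kos3 lists the median was 112 and 81 bp, with 65.8% and 78.8% within 200 bp, so the distance from Orc1 to Kos3 was of the size found between the Kos3 libraries. Between the Orc1 lists it was 31 and 26 bp. From Kos3 to Orc1 the medians were 188 and 129.5 bp in LRY3204 but 1630 and 1201 bp in LRY3211, where a wide peak has 1 summit and many Kos3 peaks lie in it. In this direction 50.8% and 67.2% of Kos3 summits were within 200 bp for LRY3204, and 28.3% and 29.4% for LRY3211. Within LRY3211 Orc1 peaks up to 2 kb, a split made after the data were seen, the Kos3 medians were 76 and 83.5 bp, and within wider ones 3688 and 3484 bp. For LRY3204 the same split gave 127 and 109.5 bp against 760 and 446 bp.

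**Figure D4:**
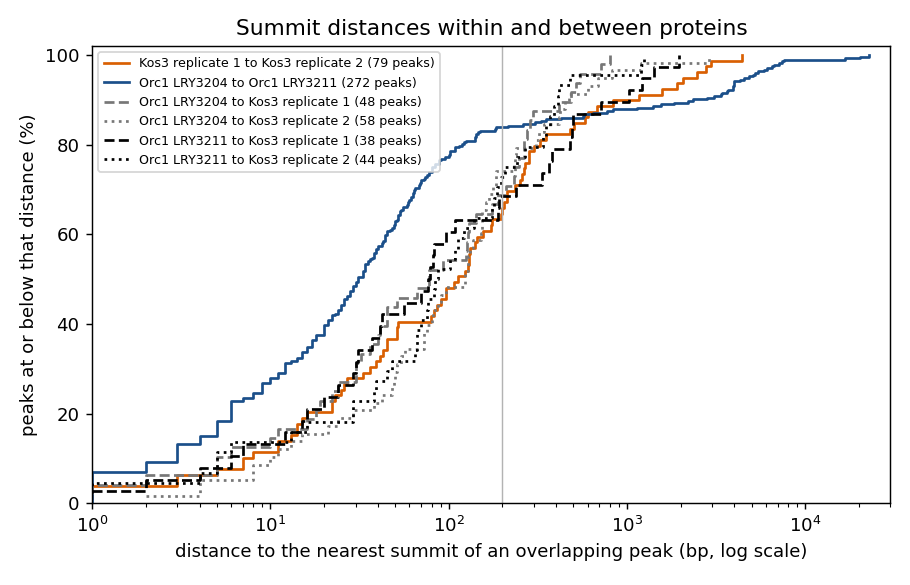
Cumulative share of overlapping peaks (%, vertical axis) by distance from a peak's summit to the nearest summit of an overlapping peak (bp, horizontal log axis), within proteins (solid lines) and from Orc1 to Kos3 (broken lines); the grey line marks 200 bp. The 4 broken lines run with the Kos3 line, with medians of 77 to 123.5 bp against 112 bp, and the Orc1 line lies left of them up to 200 bp.

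The strongest peak of each list at the 28 shared places gave larger distances between proteins than between Kos3 libraries. Median distances were 24.5 bp between the Kos3 lists, 58 bp between the Orc1 lists, and 110.5, 149.5, 132 and 159 bp between proteins. Distances of up to 200 bp were found at 23 places between the Kos3 lists, at 19 between the Orc1 lists and at 15 to 17 between proteins. All 4 distances between proteins were within 200 bp at 12 places, and at 9 places all 4 exceeded both distances within proteins. They were picked out once their values had been seen. At the left end of chromosome 4, both Kos3 summits lay at 279 and 286 and both Orc1 summits at 1483 and 1487, which is 1197 to 1208 bp apart, outside TDEL0D00100. On the right arm of chromosome 8, Kos3 summits at 818121 and 818124 lay inside TDEL0H04520 and Orc1 summits at 820082 in both lists, 1958 to 1961 bp away. That place also held weaker LRY3204 Orc1 peaks, the first from 818056, overlapping the Kos3 replicate 1 peak at 818062-818354. At the left end of chromosome 5 the distance was 3688 to 4833 bp, but there the Kos3 summits themselves were 1115 bp apart. Shorter offsets were found at the left end of chromosome 2 (236 to 363 bp), the right end of chromosome 5 (136 to 191 bp), in chromosome 4 at 186474-186774 (39 to 51 bp) and in chromosome 8 at 821153-832448 (30 to 38 bp).

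The remaining 2 of the 9 lay in the ribosomal DNA of chromosome 8. At 792030-793836 the Kos3 summits, at 792829 and 792814, were inside the 5S rRNA gene Tdel_RDN5-1, and the Orc1 summits, at 792287 and 792340, were 474 to 542 bp to its left. At 800722-802584 the Kos3 summits were at 801567 and 801545 in Tdel_RDN5-2 and the Orc1 summits at 801052 and 801069, 476 to 515 bp away on the same side. Kos3 folds there, 1.64 to 1.90, were among the weakest of their lists, with ranks from 99 to 107. Orc1 covered 1807 and 1648 bp of the first place and 1863 and 1624 bp of the second, Kos3 278 and 880 bp and 504 and 872 bp. The rDNA is a tandem repeat, so the copy to which these reads belong is uncertain, and the places are not independent of each other.

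The longest place lay on the left arm of chromosome 5 at 48121-79495, about 63.8 kb from the end by its midpoint, and held the strongest Kos3 peak of both lists. Kos3 covered 15523 and 16355 bp of it in 15 and 16 peaks, Orc1 12626 bp in 6 peaks in LRY3204 and 31273 bp in 1 peak in LRY3211. In 3 of the lists it had a wide peak on either side. The left one ran from 49673 to 56145 and from 49613 to 56140 for Kos3 and from 49522 to 56611 for Orc1 in LRY3204, and its summit lay at 51886, 51845 and 51841. The summit of the LRY3211 Orc1 peak lay at 51845. The right one ran from 73119 to 76639 and from 72931 to 76601 for Kos3 and from 72601 to 76732 for Orc1, with summits at 75152 and 75116 for Kos3 and 74670 for Orc1. It covered the tRNA gene TDEL0Etrna12V and TDEL0E00330 whole in each list. Folds were 19.5 and 21.2 at the right Kos3 peak, the first rank of each list, and 24.8 at the Orc1 peak. Between these wide peaks, Kos3 had scattered small peaks and Orc1 of LRY3204 fewer, while Orc1 of LRY3211 covered TDEL0E00270 to TDEL0E00320 whole. The gene annotated as SIR1 begins at the right edge, and no gene in the annotation is named KOS3. Kos3 covered 0% and 16.8% of that gene and Orc1 0% in LRY3204 and 9.49% in LRY3211.

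**Figure D5:**
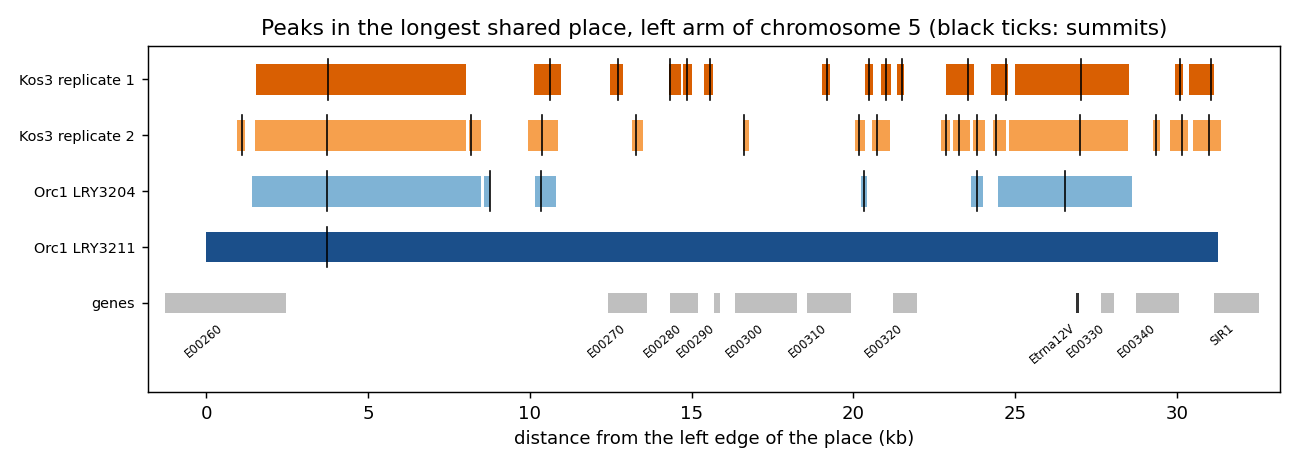
Peaks of the 4 lists (coloured bars, black ticks at summits) and annotated genes (grey bars, the tRNA gene black, shown without their TDEL0 prefix) along the longest shared place, by distance from its left edge (kb). Kos3 and LRY3204 Orc1 peaks leave gaps between a left and a right wide peak, and the LRY3211 Orc1 peak is 1 bar of 31273 bp.

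The silent mating-type locus was the third strongest Kos3 place in both lists. HMLALPHA1 and HMLALPHA2, which encode the alpha mating-type regulators, lie in the place on chromosome 3 at 1269063-1283012. Kos3 covered 5705 and 7464 bp in 9 and 6 peaks, and Orc1 6081 and 13822 bp in 2 peaks in each strain. The strongest summits lay beside HMLALPHA1 at 1276094 and 1276067 for Kos3 and at 1276075 and 1276176 for Orc1. Within its own list the Orc1 peak ranked 127 in LRY3204 and 37 in LRY3211.

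The next Kos3 places by rank were mostly chromosome ends with few annotated genes. The left end of chromosome 2 had Kos3 rank 2 in both lists and Orc1 ranks 8 and 1, with 7173 and 9886 bp under Kos3 and 9011 and 16933 bp under Orc1. The left end of chromosome 7 was covered over 7162 and 7396 bp by Kos3 and 7536 and 14264 bp by Orc1. At the right end of chromosome 1, Kos3 covered 4578 and 5760 bp and Orc1 5626 and 10295 bp, and the strongest peak of the LRY3204 Orc1 list (fold 28.7) lay there. At the right end of chromosome 8, the place at 821153-832448 gave 2634 and 4511 bp for Kos3 and 3974 and 11296 bp for Orc1. In each of these, LRY3211 Orc1 had the largest value and LRY3204 Orc1 lay within 1 kb of a Kos3 value. The place at 832854-833999, closest to that end, showed almost no such gap, with 1061, 1118, 1146 and 1133 bp. The left end of chromosome 1 at 1-1149 (1103, 1122, 1137 and 1149 bp) was alike in this, and at the right end of chromosome 6, over the tRNA genes TDEL0Ftrna2V and TDEL0Ftrna5T, the lengths were 3388, 3502, 3578 and 3833 bp.

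Strong shared places away from ends were few. On chromosome 4 at 1192139-1197383, 23.4 kb from the end, the summits lay in FRE4, named for a ferric reductase of S. cerevisiae, and the lists covered 3611, 4487, 4575 and 5245 bp. On chromosome 7 at 34298-39618, beside TDEL0G00190, they covered 2755, 3870, 3151 and 5244 bp. Deep in chromosome 3 at 1050692-1051876, 240.5 kb from the end, the summits lay in SLA2, which encodes an actin-binding protein of endocytosis and neighbours the mating-type locus in several budding yeasts. Kos3 covered 810 and 767 bp there and Orc1 1125 and 1160 bp, with summits from 1051323 to 1051397, Kos3 ranks of 16 and 13 and Orc1 ranks of 134 and 66. The neighbouring place at 1048410-1050212 was covered over 212, 767, 283 and 1803 bp. Between UBA2 and IDH2 on chromosome 1, at 598790-599502, Kos3 covered 249 and 425 bp and Orc1 713 and 590 bp. The exception to the larger LRY3211 extent was chromosome 4 at 186474-186774, between CAR2 and DIF1, with 285, 301, 285 and 209 bp.

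Strong Orc1 places without Kos3 were compact and lay between or beside genes. The 5 best by Orc1 rank were next to CYT1 and YNG1 (chromosome 2, 465888-467104, rank 6 in both lists), between a tRNA gene and MRPL3 (chromosome 2, 1169912-1170820), between ACT1 and SND2 (chromosome 3, 73804-75378), between RAD27 and ABF1 (chromosome 1, 424371-425841) and between CIR1 and SER2 (chromosome 5, 930230-931950). ACT1 encodes actin, RAD27 the flap endonuclease of DNA replication and ABF1 a factor that binds replication origins and silencers in S. cerevisiae. Their folds ran from 18.3 to 22.95, near the top of each Orc1 list, and each was 1 peak of 816 to 1721 bp in both strains. The absence of Kos3 at these loci follows from the way they were chosen. Some Orc1 places of like rank did hold Kos3, such as the left end of chromosome 2.

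Genes of the silencing and replication machinery were looked up within 1 kb of peaks. A Kos3 peak of either list lay that close to 2.44% of all 5174 genes and an Orc1 peak to 13.8%. Kos3 was found at 1 of the 8 annotated silencing genes, SIR1, and at 0 of the 13 annotated replication genes. Orc1 was found at 3 and 5 of them, with ORC1 itself on both gene lists. Among them were ORC4 (folds 8.09 and 7.097), ORC5 (11.1 and 13.95), MCM3 (10.8 and 11.6) and MCM7 (4.64 and 4.42), which encode subunits of the origin recognition complex and of the replicative helicase. ORC1 itself had 3 peaks, the strongest of fold 2.68, in LRY3204 and none in LRY3211. SIR2 and SIR4 had no peak of either protein within 1 kb. Both HML genes had peaks of both proteins in every list.

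Both proteins had most of their summits between genes. Summits lay outside annotated genes in 68 of 105 and 83 of 119 Kos3 peaks (64.8% and 69.7%) and in 221 of 300 and 218 of 308 Orc1 peaks (73.7% and 70.8%), against 20.7% of all bases. The means of 67.2% ± 3.53 and 72.2% ± 2.04 (SD, n = 2 libraries each) differed by −4.97 percentage points (exact two-sided permutation test, p = 0.333, the smallest possible), and among peaks with a −log10 q of at least 10 the sign was reversed, to 3.42. It was −2.48 points without Kos3 replicate 1 and −7.46 points without Kos3 replicate 2. Near ends the 4 shares were 74.6%, 74.0%, 76.5% and 71.4%, and in the interior 52.2%, 63.0%, 73.1% and 70.6%, so the lower Kos3 values came from interior peaks.

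Summits near transfer RNA genes were mostly those of Orc1. Summits within 1 kb of a tRNA gene, a zone of 4.02% of all bases, numbered 5 and 6 for Kos3 (4.76% and 5.04%) and 51 in each Orc1 list (17.0% and 16.6%). In the interior they were 2 and 3 of 46 Kos3 summits against 47 of 249 and 47 of 231 Orc1 summits (18.9% and 20.3%). All 5 and 6 Kos3 peaks near tRNA genes overlapped Orc1, while 5 and 4 of the 51 Orc1 peaks there overlapped Kos3. Wherever they lay, 87.6% and 91.6% of all Kos3 peaks overlapped a peak of either Orc1 list. Of all Orc1 peaks, 20.7% in LRY3204 and 16.6% in LRY3211 overlapped a peak of either Kos3 list. With so few Kos3 peaks near tRNA genes, their overlap cannot be told from that of all Kos3 peaks. Of 193 tRNA genes, 7 and 9 had a Kos3 peak within 1 kb, and 70 and 69 had an Orc1 peak.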

How the data were processed

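Peak lists from 4 immunoprecipitation libraries were compared, 2 of Kos3 and 2 of Orc1. Bowtie2 2.3.4.1, a read aligner, and MACS2 2.2.7.1, a peak caller, were used per the submitters' processing notes. The genome build, read filters and threshold are not given in the sources used here. The deposited lists, called per library, give each peak a fold enrichment (a linear ratio, the authors' value), a −log10 p-value and −log10 q-value, and an integer score. Peak names in the deposited lists hold the word subsample and, in the LRY3211 lists, another input number than the file name, neither of which the labels explain. The lists hold no read counts, so depth is unknown, and the number of peaks sets the precision. Intervals are Wilson 95% intervals and cover counting error only. Input libraries were not analysed here.

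Widths, summits, overlaps and places were computed with pandas 2.3.3 and tests with scipy 1.17.1, in scripts tested on simulated peaks. Coordinates are 1-based. The 5174 genes come from the RefSeq gene table of assembly ASM24337v1, whose chromosomes were matched to the RefSeq entries of the lists in order. The match was checked with Orc1 summits of −log10 q at least 10, of which 68.75% to 87.3% lay outside the genes of the same chromosome and at most 62.1% outside those of another. The largest peak or gene end stood for each of the 8 chromosome ends on the right, so distances are lower bounds and the base total, 9215 kb, too. Libraries were compared by an exact two-sided permutation test. Named places are the 10 shared places strongest in Kos3, the 5 strongest interior ones, the 5 strongest with Orc1 alone, all with Kos3 alone, and the 5 with the largest and the 5 with the smallest difference in covered length. Members, lists and alternatives were chosen with earlier results of these data known. Replicate numbers do not pair the libraries, since Orc1 replicate 1 is another strain.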

Additional observations from a re-analysis of the deposited data

How the results depend on the processing

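Over 84 alternatives for 8 results, the sign of a difference between the proteins was reversed in 1. For the share of summits outside genes, a difference of −4.97 percentage points (Kos3 minus Orc1) became 3.42 among peaks with a −log10 q of at least 10. The same number of peaks was also taken from each list, the 105 of highest −log10 q, with fold used only for ties. The summit distance from Kos3 to Orc1 was then 2130 bp in place of 787 ± 747 (SD, n = 4 pairs of lists), and 14 places were shared in place of 28. With summits within 200 bp in place of 1 bp of overlap, 18 were shared. The cause of these was not tested. The difference in overlap share was 24.8 points with equal numbers of peaks and 18.8 points with summits within 200 bp. Within Orc1 peaks up to 2 kb, a setting added after the data were seen, the summit distance was 99.0 bp.

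Leaving out each library in turn moved the difference in peak number from −199 to −185, in overlap share from 40.2 to 76.3 points, in median width from −541 to −472 bp, in covered length per shared place, with places redefined each time, from −2617 bp without Orc1 of LRY3204 to −178 bp without Orc1 of LRY3211, in share near ends from 27.3 to 43.0 points and in summits outside genes from −7.46 points without Kos3 replicate 2 to −2.48 points without Kos3 replicate 1. The summit distance ranged from 159 bp without Orc1 of LRY3211 to 1416 bp without Orc1 of LRY3204, and the number of shared places from 31 to 41. Covered length, overlap share and summit distance thus rest on which Orc1 list is used. As a replicate block the labels share only a number (correlation of deviations 0.454), and the differences were unchanged, −192 peaks for example (exact sign-flip test, two-sided, p = 0.5, the smallest it allows), with a summit distance of 694.5 bp.

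Peak lists without read counts give no depth, so a missing peak is one not called at the depth of that library, and the wider LRY3211 Orc1 peaks were not adjusted for depth.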
